A study of Homo sapiens with 4 samples.

Results

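Nonsense-mediated mRNA decay (NMD) factors are described here as 9 genes, UPF1, UPF2, UPF3A, UPF3B, SMG1, SMG5, SMG6, SMG8 and SMG9, chosen by their symbols among the 58735 Ensembl genes listed for each library. All 9 were found, and all 9 passed the filter on low values that left 16362 genes for testing. The data are 4 RNA sequencing libraries of HEK293A cells, an established line of epithelial cells from human embryonic kidney, from a study of gene regulation by FEN1, an enzyme that cuts DNA flaps, with mis-hairpin DNA probes as its guides. In 2 libraries (replicates 2 and 3) the cells were labelled NT1_hp2, and in the other 2 (replicates 1 and 3) they were labelled negative control. Every well, controls included, received 1 µg of FEN1 plasmid and then 500 pmol of DNA probes 48 h later, and RNA was taken after 72 h. The labels used here do not state what NT1_hp2 targets, which probe the negative control received or whether replicates were grown separately. P-values therefore reflect the spread of these 4 libraries, part of which may be technical.

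NMD removes mRNAs on which the ribosome stops too early, and it also lowers many normal mRNAs that carry an upstream reading frame or a long 3' untranslated region. UPF1 is the RNA helicase at its centre, UPF2 joins UPF1 to UPF3A or UPF3B, and the UPF3 proteins contact the exon junction complex that splicing leaves on an mRNA. The kinase SMG1, held in check by SMG8 and SMG9, phosphorylates UPF1, and phosphorylated UPF1 is read by the endonuclease SMG6 and by the adaptor SMG5. The mRNAs of several of these factors are themselves NMD substrates in human cells, a feedback in which their levels go up when decay is impaired.

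No decay factor passed the test between NT1_hp2 and negative control cells: 0 of 9 against 13.9% of all tested genes (adjusted p under 0.05, limma-trend on log2(FPKM + 1) with Benjamini-Hochberg adjustment over the 16362 genes), with 4 of 9 at an unadjusted limma p under 0.05 against 37.0% of all tested genes. SMG1 had the largest difference of the 9, at 1.42 times the control mean, and its adjusted limma p of 0.0525 lay just past the threshold. UPF1, UPF3A and SMG8 were at 0.834, 0.833 and 0.809 of their control means. UPF2, UPF3B, SMG5, SMG6 and SMG9 differed by less, at 0.883 to 1.06 times the control. The groups did not overlap in 7 of the 9, 1 higher and 6 lower in NT1_hp2, beside 66.8% of all tested genes. In bulk RNA a change in the make-up of the culture and a change in RNA per cell cannot be told apart. The median log2 difference of the 9 was −0.13, beside −0.01 over all tested genes.

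The libraries held 13647614 and 13602537 reads on annotated genes in NT1_hp2 and 14908687 and 12506203 in the negative control, recovered from the deposited FPKM values (reads scaled to exon length and to a size set for each library). That size was 1.03 and 1.04 times the recovered reads in NT1_hp2 and 0.966 and 1.005 times them in the negative control, so the deposited scaling differed between the groups. Over all tested genes 818 were called higher and 1460 lower in NT1_hp2, and 1529 and 1322 with libraries scaled to their totals. Behind each member stood 351 to 3581 reads per library. Mitochondrial genes held 4.33% and 4.29% of reads in NT1_hp2 and 6.06% and 5.92% in the negative control, and the part of this in the results was not tested. Across tested genes, libraries correlated at r = 0.974 within NT1_hp2, 0.972 within the negative control and 0.944 to 0.960 between the groups. FEN1 was supplied on the plasmid in both groups, and plasmid reads cannot be told apart from those of the cells' own gene. It averaged 51.4 ± 0.111 FPKM in NT1_hp2 and 69.1 ± 6.48 FPKM in the negative control (SD, n = 2 each). FEN1 was called lower in NT1_hp2 (log2 difference −0.42, limma adjusted p = 0.0441), as were 8.92% of all tested genes. Its exons overlap those of TMEM258 on the other strand, so its reads are uncertain there. Of 8 kidney and epithelial marker genes 4 were at 1 FPKM or more in every library (KRT8, KRT18, VIM and LHX1), while the epithelial markers CDH1 and EPCAM and the kidney regulators PAX2 and PAX8 stayed under 1 FPKM. Markers of blood, endothelial and liver cells summed to at most 1.32, 0.376 and 0.104 FPKM per library in either group, with PTPRC and CD3E at 0. The fibroblast list summed to 8.31 to 8.42 FPKM in NT1_hp2 and 8.78 to 9.11 FPKM in the negative control, nearly all of it COL1A1, at 7.85 to 7.90 FPKM in NT1_hp2 and 8.29 to 8.44 FPKM in the negative control.

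The core helicase complex showed small differences in the same direction in UPF1 and both UPF3 genes. UPF1 (ENSG00000005007, chromosome 19, 18831938 to 18868236, GRCh38) had 20.4 and 21.9 FPKM in NT1_hp2, against 25.9 and 24.7 FPKM in the negative control. Both NT1_hp2 libraries lay below both control libraries, as they did for 34.8% of all tested genes. The log2 difference was −0.25 (SE 0.069, 95% interval −0.43 to −0.07, limma adjusted p = 0.0694).

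UPF3A (ENSG00000169062, chromosome 13, 114281584 to 114305817), the weaker of the paralogous bridges to the exon junction complex, had 8.59 and 9.42 FPKM in NT1_hp2, against 11.0 and 10.6 FPKM in the negative control. UPF3B (ENSG00000125351, chromosome X, 119805311 to 119852998), the more active paralog, had 22.4 and 22.7 FPKM in NT1_hp2, against 26.5 and 24.6 FPKM in the negative control. Neither gene's groups overlapped, and both were lower in NT1_hp2 without passing. The log2 differences were −0.24 (SE 0.075, limma adjusted p = 0.0892) for UPF3A and −0.17 (SE 0.067, limma adjusted p = 0.137) for UPF3B. The ratio of UPF3A to UPF3B levels was 0.383 and 0.415 in NT1_hp2 and 0.416 and 0.430 in the negative control, so UPF3B was the more abundant paralog per kilobase in every library. In UPF2 (ENSG00000151461, chromosome 10, 11920022 to 12043170), the bridge between UPF1 and UPF3, the groups overlapped, with 9.21 and 8.11 FPKM in NT1_hp2 against 8.48 and 7.86 FPKM in the negative control. Its log2 difference was 0.07, with a 95% interval of −0.15 to 0.30.

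In the kinase complex none of the subunits SMG1, SMG8 and SMG9 passed the test. SMG1 (ENSG00000157106, chromosome 16, 18804853 to 18926454), the kinase of UPF1, had 9.76 and 9.23 FPKM in NT1_hp2, against 6.03 and 7.36 FPKM in the negative control. It was the only member of the 9 whose NT1_hp2 libraries both lay above both control libraries, which 32.0% of all tested genes did. The log2 difference was 0.45 (SE 0.105, 95% interval 0.18 to 0.72), and its control libraries lay further apart than its NT1_hp2 libraries. Without negative control replicate 1 the log2 difference was 0.33, and without negative control replicate 3 it was 0.58.

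SMG1 passed the threshold in 5 of 15 other settings, each with its own background, and in 0 of the 4 that left out a library, where at most 0.00611% of all tested genes passed. In those 4 a group has 1 library, which is assumed to vary like the remaining pair, and hardly any gene passed, so they bear on the size of the difference and not on its call. Tested among protein-coding genes alone it passed with a limma adjusted p of 0.00369, in a setting where 38.8% of genes passed. With limma-voom on the recovered reads it passed at an adjusted p of 5.8e-06, where 35.4% of genes passed. It also passed with libraries scaled to their totals (0.0434, where 17.3% passed), with at least 1 FPKM in all 4 libraries (0.0242, where 26.2% passed) and with a pseudocount of 0.1 (0.0498, where 14.8% passed). With median-of-ratios factors (12.8% passed), with upper-quartile factors (14.4%), without robust shrinkage (11.9%), with the length trend alone removed (15.7%) and without the filter (0%) SMG1 did not pass. After per-library trends with exon length and GC content were removed, its log2 difference was 0.23 (limma adjusted p = 0.139), where 1.72% of genes passed.

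Part of the SMG1 transcript is repeated almost letter for letter in 7 pseudogenes on chromosome 16, so the reads of SMG1 cannot all be assigned without doubt. The stretches below come from GENCODE release 29 transcripts (GRCh38) and show why. The first is a coding stretch of SMG1 exon 11 (chr16:18879657-18879716, minus strand) that stands unaltered in all 7 copies. The other stretches are a coding part of SMG1 (chr16:18892256-18892315, minus strand) and the matching part of SMG1P1 (chr16:22459394-22459453, plus strand), with the differing bases in capitals.
SMG1, in all copies: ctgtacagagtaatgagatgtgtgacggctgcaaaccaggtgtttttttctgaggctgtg
SMG1: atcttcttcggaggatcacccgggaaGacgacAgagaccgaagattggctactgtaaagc
SMG1P1: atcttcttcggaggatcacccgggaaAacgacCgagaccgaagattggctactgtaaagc
The substitutions are G27A and A33C, counted from 1 at the 5' end of the stretch, with the SMG1 base first. Each stretch is 60 bases long. A read that lies wholly within the first could belong to SMG1 or to any of the copies. Within the SMG1 and SMG1P1 pair only a read that covers position 27 or 33 separates SMG1 from SMG1P1. Reads that reach beyond these stretches may meet other differences.

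Of all 100-base windows of the SMG1 transcript, 11.5% also occur in a transcript of another gene, and these lie mostly near the 5' end. Among windows that start at bases 1602 to 4804 of the transcript 43.8% are shared, and among those that start at bases 4805 to 9609, 0 are. UPF3A shares 25.7% of its windows with the processed pseudogenes UPF3AP1 and UPF3AP2. SMG6 shares 28.7% with HIC1, a gene on the opposite strand that averaged 0.235 ± 0.0994 FPKM in NT1_hp2 and 0.339 ± 0.0197 FPKM in the negative control (SD, n = 2 each). SMG8 shares 9.68% with AC099850.2, a gene on the same strand listed at 0 in every library. UPF1, UPF2, UPF3B, SMG5 and SMG9 share no such window with any other annotated transcript. The library kit is not stated to keep strand, so reads of SMG6 and HIC1 over their common exons cannot be told apart.

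**Figure D1:**
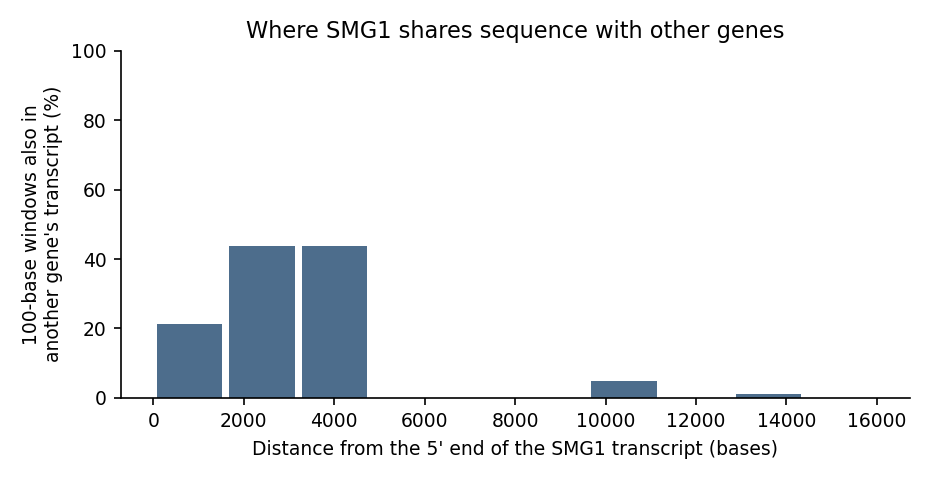
Percentage of 100-base windows of the SMG1 principal transcript that also occur in a transcript of another gene, in 10 equal bins from the 5' end. The shared windows gather in the first 3 bins, with 43.8% in those that start at bases 1602 and 3204.

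Most of the pseudogene rows that could be tested had a difference of the same sign as SMG1. SMG1P1 had 4.34 and 3.73 FPKM in NT1_hp2, against 2.73 and 2.65 FPKM in the negative control, and its log2 difference of 0.44 (SE 0.102, limma adjusted p = 0.0511) was close to that of SMG1. SMG1P2, the next most abundant copy, had overlapping groups, with 2.70 and 2.02 FPKM in NT1_hp2 and 2.09 and 1.51 FPKM in the negative control. Of the 5 copies that passed the filter, SMG1P1, SMG1P2, SMG1P3 and SMG1P5 had differences above 0 and SMG1P7 one below 0, and 0 of the 5 passed the test. SMG1 itself held 78.0% and 78.9% of the reads of SMG1 and its 7 copies in NT1_hp2 and 77.4% and 77.9% in the negative control. With the reads of all copies added to SMG1, an alternative chosen after seeing the data, the level was 12.5 and 11.7 FPKM in NT1_hp2 and 7.79 and 9.44 FPKM in the negative control. The log2 difference was then 0.45 (limma adjusted p = 0.0525), as large as without the copies. SMG1 held most of the summed reads, so the sum could move little, and it does not settle which reads belong to SMG1. UPF3A with its copies added was at −0.24 (limma adjusted p = 0.0823), and the 3 UPF3A copies were at most at 0.632 FPKM in any library.

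SMG8 (ENSG00000167447, chromosome 17, 59209400 to 59215247) and SMG9 (ENSG00000105771, chromosome 19, 43727992 to 43754990) bind SMG1 and restrain it. SMG8 had 6.62 and 7.06 FPKM in NT1_hp2, against 8.996 and 7.91 FPKM in the negative control, a log2 difference of −0.27 (SE 0.088, limma adjusted p = 0.0977). SMG9 had 5.40 and 6.43 FPKM in NT1_hp2, against 6.60 and 6.54 FPKM in the negative control, a log2 difference of −0.13 (SE 0.097, limma adjusted p = 0.371). Both regulators were lower in each NT1_hp2 library than in either control library, although 1 NT1_hp2 library of SMG9 lay close to the controls. The level of SMG8 relative to SMG1 was 0.679 and 0.765 in NT1_hp2 and 1.49 and 1.08 in the negative control, and that of SMG9 relative to SMG1 was 0.553 and 0.697 in NT1_hp2 and 1.09 and 0.889 in the negative control. These ratios restate the levels above, since SMG1 was higher and SMG8 and SMG9 lower in each NT1_hp2 library.

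The effectors that act on phosphorylated UPF1 differed little. SMG5 (ENSG00000198952, chromosome 1, 156249224 to 156282825), the adaptor that leads to deadenylation and decapping, had 27.8 and 28.8 FPKM in NT1_hp2, against 30.1 and 27.5 FPKM in the negative control. SMG6 (ENSG00000070366, chromosome 17, 2059839 to 2303771), the endonuclease that cuts near the stop site, had 3.55 and 3.33 FPKM in NT1_hp2, against 3.72 and 3.80 FPKM in the negative control. The groups overlapped in SMG5, and in SMG6 they did not. The log2 differences were −0.02 (95% interval −0.21 to 0.17) for SMG5 and −0.10 (95% interval −0.32 to 0.12) for SMG6. The ratio of SMG6 to SMG5 levels was 0.127 and 0.115 in NT1_hp2 and 0.124 and 0.138 in the negative control.

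**Figure D2:**
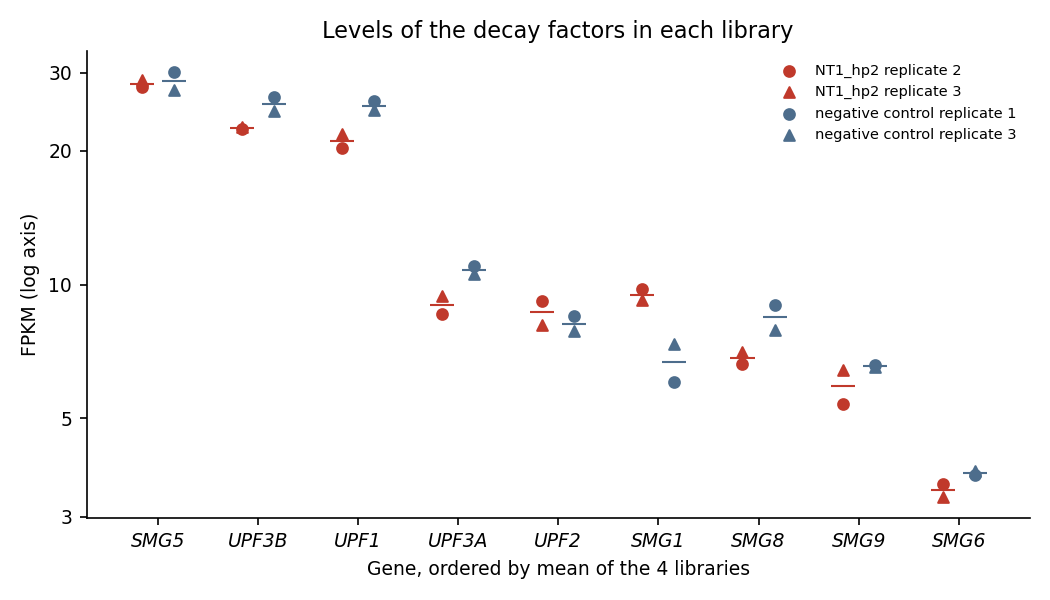
FPKM (log axis) of each decay factor in the 4 libraries, with NT1_hp2 left of negative control, points for libraries and short lines for group means (n = 2 each). The levels run from 3.33 FPKM for SMG6 to 30.1 FPKM for SMG5, and SMG1 is the gene in which both NT1_hp2 points stand clearly above both control points.

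**Figure D3:**
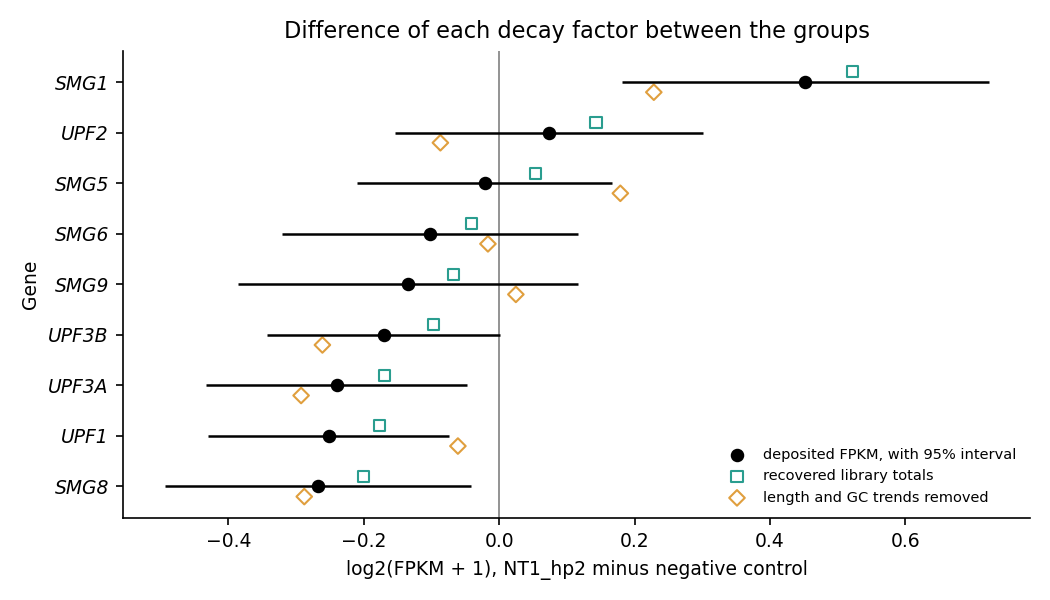
Difference on the log2(FPKM + 1) scale, NT1_hp2 minus negative control, for each decay factor. Black points and bars are the values from the deposited FPKM with 95% intervals (unadjusted), open squares the values with libraries scaled to their totals and open diamonds those after removal of length and GC trends, where SMG1 is at 0.23.

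In order of level over the 4 libraries, SMG5 came first at 28.6 FPKM, followed by UPF3B at 24.1, UPF1 at 23.2, UPF3A at 9.91, UPF2 at 8.41, SMG1 at 8.09, SMG8 at 7.65, SMG9 at 6.24 and SMG6 at 3.60. The ranges over the 4 libraries overlapped between UPF3B and UPF1, between UPF3A and UPF2, between UPF2 and SMG1, and between SMG1 and SMG8, so the order within those pairs of neighbours is not settled beyond their spread. The range of SMG1 (6.03 to 9.76 FPKM) also overlapped those of UPF3A and SMG9, and its place by FPKM differed between the groups. By group mean SMG1 stood above UPF3A and UPF2 in NT1_hp2 (9.49 against 9.004 and 8.66 FPKM) and below UPF2 and SMG8 in the negative control (6.69 against 8.17 and 8.45 FPKM). SMG5 lay above UPF3B, UPF1 above UPF3A, and SMG9 above SMG6 in every library. The lowest SMG8 value (6.62 FPKM) was barely above the highest SMG9 value (6.60 FPKM).

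The FPKM values divide by all annotated exon bases of a gene, and for SMG1 these come to 25988 bases, beside 16115 in its principal transcript (the annotation's main coding transcript). With mean levels rescaled to the principal transcript, a choice made after seeing the data, UPF1 ranked 1st at 37.3, SMG5 2nd at 33.2, UPF3B 3rd at 31.2 and UPF3A 4th at 24.0, on the FPKM scale. SMG1 followed at 13.1 and SMG6 was again last at 6.38. In both groups, by mean, SMG1 then stood below UPF3A and above UPF2, SMG8 and SMG9. The position of UPF1 in the order therefore depends on the length used, as do those of SMG5, UPF3B, UPF2, SMG1, SMG8 and SMG9. Those of UPF3A and SMG6 were the same with both lengths.

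The 9 transcripts differ widely in the features by which an mRNA can become an NMD substrate. The 3' untranslated region of the principal transcript in GENCODE release 29 is 4719 bases long in SMG1, 3607 in SMG9, 1722 in UPF1, 1652 in SMG6, 1366 in SMG5 and 1279 in UPF2. It is shorter in UPF3A (903 bases), UPF3B (859) and SMG8 (240). The 2 longest belong to SMG1 and SMG9, whose log2 differences had opposite signs, 0.45 and −0.13. SMG8, with the shortest one, had the lowest log2 difference of the 9, −0.27. A link between this length and the differences was not tested, and upstream reading frames were not examined. The annotation marks 1 transcript as an NMD substrate in each of SMG1, SMG8 and SMG9 and 0 in the other 6, and the files give 1 value per gene, so transcripts cannot be told apart.

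GC content went with the differences across the whole table. The median log2 difference was 0.24 in 2072 tested genes with a GC content under 40% and −0.32 in 2325 genes at 60% or more. SMG1 (42.3% GC) lay at 0.45, above the upper quartile of 0.29 for genes at 40 to 45%, whose median was 0.14. UPF2 (41.5%) lay at 0.07, within the quartiles of that range, and UPF3B (42.1%) lay at −0.17, below its lower quartile of −0.01.

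UPF3A (46.9% GC) and SMG8 (46.9%) were both below the lower quartile of −0.13 for genes at 45 to 50%. UPF1 (59.6%), SMG9 (57.5%) and SMG6 (55.9%) were within the quartiles of −0.39 and −0.04 for genes at 55 to 60%, and SMG5 (57.6%) was above them. After removal of length and GC trends the log2 differences were −0.06 for UPF1, −0.26 for UPF3B, −0.29 for UPF3A, −0.29 for SMG8 and 0.18 for SMG5. In that setting 0 of 9 members passed, beside 1.72% of all tested genes.

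**Figure D4:**
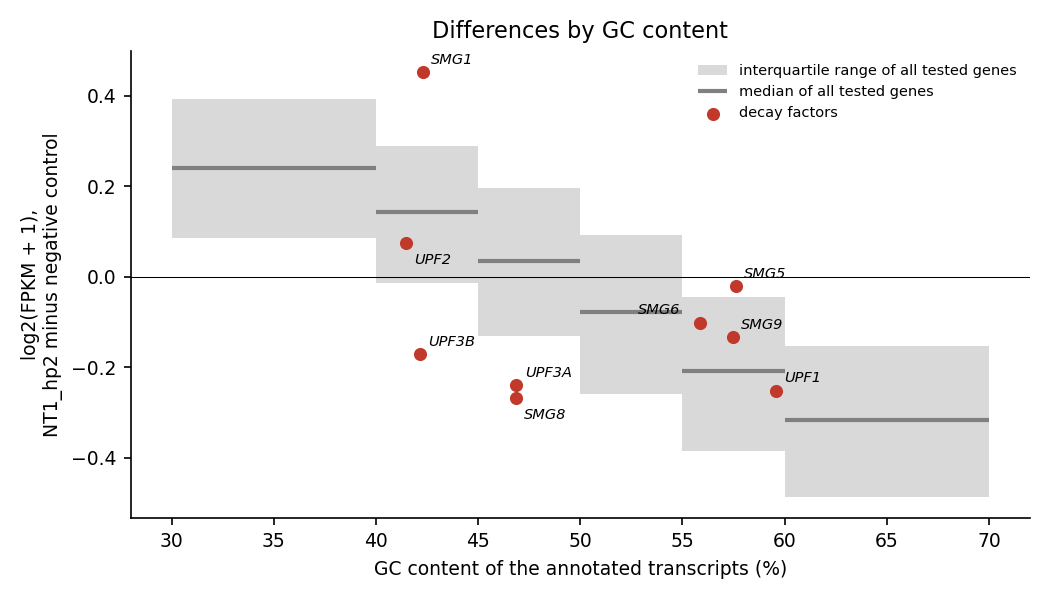
Difference on the log2(FPKM + 1) scale, NT1_hp2 minus negative control, against the GC content of a gene's annotated transcripts. Grey boxes give the interquartile range and grey lines the median of all tested genes by GC range (the outer boxes hold all genes under 40% and at 60% or more), and red points are the 9 decay factors, with SMG1 above its range and UPF3B, UPF3A and SMG8 below theirs.

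The genes whose centred profile over the 4 libraries was nearest to the mean profile of the 9 members, among 7777 other protein-coding genes of at least 5 FPKM, were PLCXD1, NUP50, STIM1, CDC42EP3 and DNM2. Their Euclidean distances on the log2(FPKM + 1) scale were 0.0081 to 0.0208. That mean profile spans only −0.05 to 0.06 around its centre.

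The decay factors were then set beside 139 other genes in 9 lists, of which 1 (25 genes) holds substrates of NMD and not its machinery. Of the 138 tested, 11 rose and 22 fell in NT1_hp2 (6 and 3 of them substrates), beside 5.00% and 8.92% of all tested genes. With libraries scaled to their totals 17 were higher and 20 lower, beside 9.30% and 8.04% of all tested genes. With limma-voom 39 were higher and 26 lower, beside 20.4% and 14.9%. After removal of length and GC trends 3 were higher and 5 lower, beside 0.673% and 1.05%. The lists are described by these counts and by their medians, and they were not tested as sets.

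The exon junction complex, the mark that the UPF3 proteins recognise, had a median log2 difference of −0.24. Of its 12 genes 5 were lower and 1 higher in NT1_hp2, beside 8.92% and 5.00% of all tested genes. Without negative control replicate 1 the median was −0.127, and without negative control replicate 3 it was −0.328. It was −0.264 without NT1_hp2 replicate 2 and −0.209 without NT1_hp2 replicate 3. MAGOH, a core subunit, fell to 6.45 ± 1.01 FPKM in NT1_hp2, against 14.5 ± 2.51 FPKM in the negative control (SD, n = 2 each; log2 difference −1.06, SE 0.152, limma adjusted p = 0.0340). The other core subunit genes were RBM8A, which fell (log2 difference −0.30), and EIF4A3 and CASC3, which did not pass (−0.22 and 0.05). The export adaptor ALYREF fell to 32.8 ± 0.830 FPKM in NT1_hp2, against 56.8 ± 5.59 FPKM in the negative control. PYM1, which takes the complex off translated mRNAs, and ACIN1 also fell (−0.54 and −0.42), while the splicing coactivator SRRM1 rose to 40.5 ± 0.444 FPKM in NT1_hp2, against 30.3 ± 0.182 FPKM in the negative control. MAGOHB, the near-identical paralog of MAGOH, was at 0.04 without passing, and reads of the paralogs may be divided uncertainly. Exons of ALYREF, PYM1, ACIN1 and RBM8A overlap genes on the other strand, and so do those of MAGOH and, below, of TELO2, RUVBL1, RUVBL2, PIH1D1, CNOT1, ABCE1, ZFAS1, DDIT3, PPP2R1A, MOV10, PATL1, LSM7, SKIV2L, CARS and CDKN1A, so their reads are uncertain there. After removal of length and GC trends MAGOH (−1.16) and ALYREF (−0.51) were the 2 genes of the list past the threshold, beside 1.72% of all tested genes. RBM8A (−0.35), PYM1 (−0.40) and ACIN1 (−0.37) then missed it, with limma adjusted p of 0.0531 to 0.0542.

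SMG1 belongs to the phosphatidylinositol 3-kinase-related kinases, which need the TELO2 complex and the RUVBL1 and RUVBL2 ATPases to mature. Of 14 genes for the other kinases and this machinery, 4 fell and 0 rose in NT1_hp2, beside 8.92% and 5.00% of all tested genes. All 4 belong to the maturation machinery. TELO2 fell to 23.1 ± 1.65 FPKM in NT1_hp2, against 34.1 ± 2.75 FPKM in the negative control, and RUVBL2 to 25.2 ± 0.165 FPKM in NT1_hp2, against 36.2 ± 4.11 FPKM in the negative control (SD, n = 2 each). RUVBL1 (log2 difference −0.39) and PIH1D1 (−0.55), a subunit of the same chaperone complex, fell too. The kinase genes ATR (0.31), PRKDC (0.25), ATM (0.25), MTOR (−0.16) and TRRAP (−0.04) did not pass. With limma-voom 4 genes of the list were higher, ATR, ATM and PRKDC among them, and 5 lower, beside 20.4% and 14.9% of all tested genes. Among protein-coding genes 3 were higher and 6 lower, in a setting where 38.8% of genes passed. ATM and ATR, with a GC content of 39.3% and 39.5%, were at −0.04 and 0.02 after removal of length and GC trends. In that setting 0 of the 14 genes passed, beside 1.72% of all tested genes. The 4 genes called before were then at −0.33 (RUVBL1), −0.31 (PIH1D1), −0.23 (RUVBL2) and −0.20 (TELO2).

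Translation termination, which triggers NMD, had 1 gene higher and 1 lower of 12, beside 5.00% and 8.92% of all tested genes. ABCE1, the ribosome recycling factor, rose to 12.9 ± 0.558 FPKM in NT1_hp2, against 9.73 ± 0.496 FPKM in the negative control, and the initiation scaffold EIF4G1 fell to 37.6 ± 1.505 FPKM in NT1_hp2, against 49.6 ± 2.53 FPKM in the negative control. The release factor genes ETF1 and GSPT1 were at 0.10 and 0.18 on the log2 scale without passing. Among the other NMD factors 1 of 10 passed, beside 13.9% of all tested genes. The helicase gene MOV10 fell (log2 difference −0.42), and SEC13, with the next smallest p, did not pass (−0.27). Of 9 genes for subunits of protein phosphatase 2A, which removes the phosphates of UPF1, 1 passed, beside 13.9% of all tested genes. This was the scaffold gene PPP2R1A, lower at −0.37, and PPP2R2A, a regulatory subunit, did not pass (0.31). Once length and GC trends were removed, 0 genes of the termination, other NMD factor and phosphatase lists passed, beside 1.72% of all tested genes. The log2 differences were then 0.16 for ABCE1, −0.25 for EIF4G1, −0.26 for MOV10 and −0.23 for PPP2R1A.

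The decay enzymes to which NMD hands its substrates moved in both directions. In decapping and 5' to 3' decay 2 of 18 genes rose and 3 fell, beside 5.00% and 8.92% of all tested genes. The decapping activators DCP1A and PATL1 rose, DCP1A to 11.6 ± 0.218 FPKM in NT1_hp2 against 8.37 ± 0.119 FPKM in the negative control, while the Sm-like genes LSM4, LSM7 and LSM2 fell by 0.66, 0.85 and 0.32 on the log2 scale. The decapping enzyme gene DCP2 (0.37) and the exonuclease gene XRN1 (0.41) did not pass. Once length and GC trends were removed, 0 genes of this list passed, beside 1.72% of all tested genes. The log2 differences were then 0.36 (DCP1A), 0.26 (PATL1), −0.36 (LSM4), −0.56 (LSM7) and −0.27 (LSM2). In deadenylation CNOT1, the scaffold of the CCR4-NOT complex, was the 1 of 19 genes that rose (0.39), and TOB2, BTG2 and TNKS1BP1 fell. These calls stood beside 5.00% higher and 8.92% lower over all tested genes. With limma-voom 8 genes of that list were higher and 3 lower, beside 20.4% and 14.9% of all tested genes. After removal of length and GC trends 0 were higher and 1 lower, beside 0.673% and 1.05%. In the exosome and SKI complex 1 of 19 genes passed, beside 13.9% of all tested genes. This was SKIV2L, lower at −0.40, and the exosome gene EXOSC4 did not pass (−0.46). That call was lost with median-of-ratios factors and without robust shrinkage. With library totals the list had 2 genes higher and 0 lower, beside 9.30% and 8.04% of all tested genes. With limma-voom it had 4 higher and 1 lower, beside 20.4% and 14.9%. Once length and GC trends were removed, 0 genes of this list passed, with SKIV2L at −0.19, beside 1.72% of all tested genes.

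Transcripts that other studies of human cells list as NMD substrates went both ways, with 6 of 25 higher and 3 lower in NT1_hp2. Those calls stood beside 5.00% and 8.92% of all tested genes. The median log2 difference of the list was −0.11. Without negative control replicate 1 that median was 0.0048, and without negative control replicate 3 it was −0.18. The list was written with earlier results of these data known, and several of its genes are also controlled by stress pathways. ATF3 and DDIT3, stress-induced transcription factor genes, rose most, at 2.67 and 2.29 times the control mean. The snoRNA host ZFAS1 rose to 33.7 ± 2.20 FPKM in NT1_hp2, against 22.5 ± 0.341 FPKM in the negative control, and SNHG1 to 136 ± 6.06 FPKM in NT1_hp2, against 93.3 ± 9.70 FPKM in the negative control (SD, n = 2 each). SNHG5, another host, fell to 36.2 ± 1.15 FPKM in NT1_hp2, against 48.5 ± 2.72 FPKM in the negative control, and GAS5, the host most often used to follow NMD, had overlapping groups at 67.5 ± 2.93 FPKM in NT1_hp2 and 70.3 ± 9.17 FPKM in the negative control.

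GADD45A, a stress gene held low by NMD, rose, with a log2 difference of 0.31, as did the tRNA synthetase gene CARS, at 0.35. BAG1 and CDKN1A fell by 0.41 and 0.48. TBL2 (−0.11), UPP1 (0.25) and the pseudogene RP9P (−0.06) did not pass. After removal of length and GC trends, 3 genes of the list were higher (ATF3, DDIT3 and ZFAS1) and 2 were lower (SNHG5 and SRSF3). The shares of all tested genes were 0.673% and 1.05% in that setting. GADD45A (0.57), SNHG1 (0.47), CARS (0.38), BAG1 (−0.41) and CDKN1A (−0.21) then missed the threshold, with limma adjusted p of 0.0501 to 0.127.

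**Figure D5:**
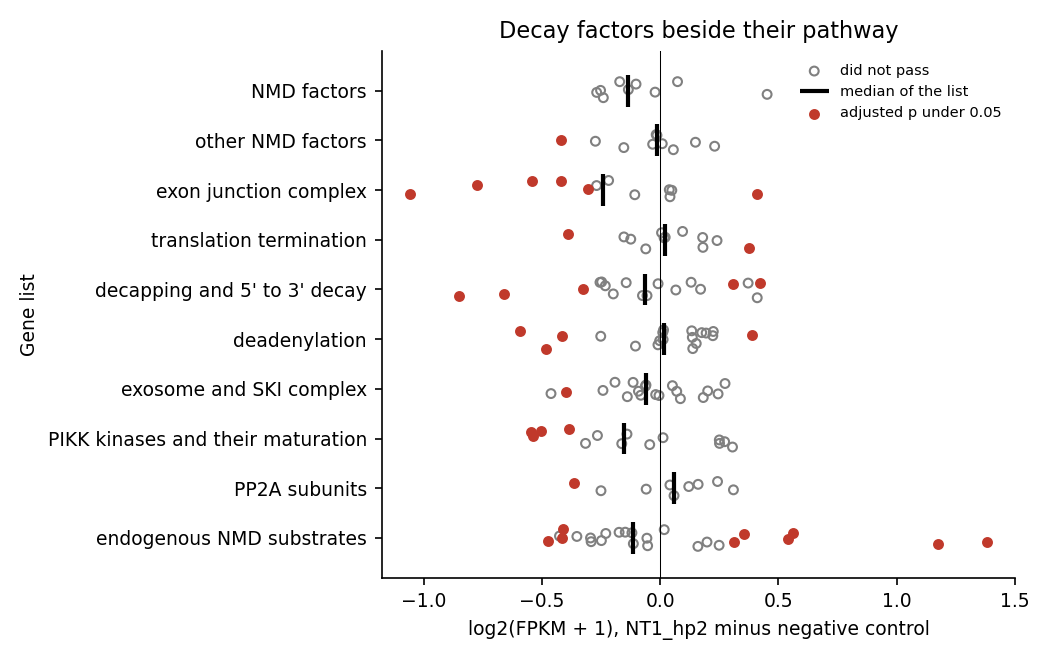
Difference on the log2(FPKM + 1) scale, NT1_hp2 minus negative control, for each tested gene of the decay factors and of 9 related lists. Filled points passed the test (limma-trend adjusted p under 0.05), open points did not, and black bars are list medians, from −0.24 for the exon junction complex to 0.06 for protein phosphatase 2A.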

How the data were processed

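RNA sequencing libraries were made with a NEBNext Ultra kit, per the labels' protocols, and mapped to GRCh38.p12, per the submitters' processing notes. The authors deposited 1 value per gene and library, taken as FPKM from the values, since the file headers name only gene and library. No aligner or counter is named in the labels used here. Multiplied by GENCODE 29 exon length and divided by a common step found for each library, 100% of values above 0 came out as whole reads (tolerance 0.01).

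Genes at 1 FPKM or more in 2 or more libraries were compared as log2(FPKM + 1), which understates changes of low genes, with limma 3.58.1 (trend, robust variance shrinkage; R 4.3.3), with Benjamini-Hochberg adjustment across all of them. Trends with exon length and GC content were removed with mgcv 1.9.3. The fit was tested on simulated data. No 2 files were identical (0 pairs). Members and lists were chosen with earlier results of these data known. Named are all members, the list genes that passed (up to 4 by p) and the 2 with the smallest p, with further list genes added after their values were seen.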

Additional observations from a re-analysis of the deposited data

How the results depend on the processing

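The number of genes called over the whole table was 2278, with 818 higher and 1460 lower. It was 0 without the filter, 3647 with at least 1 FPKM in all 4 libraries, 5787 with limma-voom, 4716 among protein-coding genes and 281 after removal of length and GC trends, and 0 to 1 when any 1 library was left out. With libraries scaled to their totals, 1529 genes were higher and 1322 lower. Unadjusted limma p-values were under 0.05 for 6778 genes without the filter and for 3315 to 5836 genes with 1 library left out. Of the 9 decay factors only SMG1 passed with a pseudocount of 0.1, where 14.8% of all tested genes passed. SMG1 was also the only one with at least 1 FPKM in all 4 libraries (26.2%) and with library totals (17.3%). After removal of the length trend alone (15.7%) only UPF1 passed. With limma-voom 2 passed (SMG1 and UPF1), beside 35.4% of genes, and among protein-coding genes 4 (SMG1, UPF1, UPF3A and SMG8), beside 38.8%. In the other settings with all 4 libraries 0 passed. Of the 138 related genes tested, 33 passed, beside 13.9% of all tested genes. Without the filter 0 of 139 passed, with limma-voom 65 of 138, among protein-coding genes 52 of 131, and after removal of length and GC trends 8 of 138. Shares over all tested genes were 0%, 35.4%, 38.8% and 1.72% in those settings. The cause was not tested.

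The sign changed in 3 members, none of them past the threshold. SMG5, at −0.02, was at 0.0537 with library totals, 0.0543 with limma-voom and 0.18 after removal of length and GC trends, and at −0.0854 to 0.0431 when 1 library was left out. UPF2, at 0.07, was at −0.0868 after removal of length and GC trends and at −0.0084 to 0.156 when 1 library was left out. SMG9, at −0.13, was at 0.0247 after removal of length and GC trends and at −0.243 to −0.0258 when 1 library was left out. SMG1 was above 0 in all 15 other settings (0.23 to 0.59), and UPF1, UPF3A, UPF3B, SMG6 and SMG8 were below 0 in all 15. No paired analysis was possible because the groups share only replicate number 3.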
